A study of Acrobeloides nanus with 194 samples.

Results

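Cells and cell clusters taken from Acrobeloides nanus embryos at stage E4 were compared with those taken at stage E2. All 14 libraries whose titles begin with E4 were members, together with the E2 libraries of 10000 counts or more. The labels give 17 E2 libraries, of which 6 fell under that total and 11 were kept. The comparison thus used 25 libraries, or 12.9% of all those in the series. Acrobeloides nanus is a free-living, parthenogenetic nematode. Its embryos were freed of the egg shell and taken apart by hand, and each piece was frozen and sequenced alone with CEL-Seq2, which reads the 3' end of transcripts after a barcode has marked the sample. The labels call all of these samples embryonic cells and give no strain, treatment or genotype.

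In nematode embryos the blastomere called E is a daughter of EMS, and in Caenorhabditis elegans it founds the intestine. There AB gives most of the skin and nervous system and a part of the pharynx. Stages in this part of development are often named after the number of descendants of E, and gastrulation in Caenorhabditis elegans begins when the E daughters move inward. The labels of the present samples do not define the stage names.

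The stage label is stage E4 for 13 of the E4 libraries and stage E2 for the other 1, E4 replicate 6, which was taken by its title. Of the kept E2 libraries, 4 have titles that name a cell or cluster and 7 have titles with a stage and a number only, so that the cell in them is not known. The title of each library ends in a number. Among E4 libraries it is 1 for 4 and 2 for 10. Among E2 libraries it is 1 for 5, 2 for the 4 named ones and 3 for 2. No label says what that number marks, and no label names the embryo a piece came from. Pieces can share an embryo, so every p-value here measures the spread between pieces. The E4 libraries carry sample numbers 46 to 83 and the named E2 libraries 71 to 74, whereas the unnamed E2 libraries carry higher numbers that do not neighbour them. A batch that followed the sample number could not be told apart from stage for the unnamed E2 libraries. The 4 E4 libraries with titles ending in 1 have sample numbers 76 to 82 and are not neighboured by the 5 such E2 libraries, so a shared ending did not bring neighbouring numbers there.

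The deposited table gives its rows neither names nor identifiers, so no marker of the gut, skin, muscle or germ line could be read and the labelled cells could not be checked. Rows are given by their number in the table.

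The E4 libraries were deeper. They held 65421 ± 42430 counts (SD, n = 14; 14722 to 143783) and the E2 libraries 32631 ± 35929 counts (SD, n = 11; 12579 to 140062). Of the E2 libraries only replicate 2, with 140062 counts, exceeded 27344 counts. No value in the whole table was above 1024, and none of the 25 libraries reached that value. The counts of abundant rows came close to it at either depth, with up to 18 rows at 512 counts or more in an E4 library and up to 10 in an E2 library. No source used here says whether counts are numbers of distinct molecular identifiers, a case in which 1024 could be a ceiling.

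The most evident difference between the stages was in the makeup of the libraries. E4 libraries spread their counts over more rows. With every library brought to 10000 counts, the expected number of rows with at least 1 count was 4583 ± 250 in E4 libraries (SD, n = 14; 4087 to 5017) and 3542 ± 793 in E2 libraries (SD, n = 11; 2347 to 4808). The difference of 1041 rows passed a two-sided permutation test (p = 0.00012, adjusted p = 0.00013 over 2 measures). The 100 most abundant rows of a library, taken in libraries thinned to 10000 counts, held 28.7% ± 5.28 of counts in E4 libraries (SD, n = 14) and 45.4% ± 12.08 in E2 libraries (SD, n = 11). The difference was -16.74 percentage points (permutation p = 0.00013, adjusted p = 0.00013).

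All 7 unnamed E2 libraries lay below every E4 library in rows detected, and the named ones did not. In the libraries with titles ending in 1, 4694 ± 220 rows were found in E4 (n = 4) and 2874 ± 444 in E2 (n = 5), and the 2 groups did not overlap. The 1820 rows between them gave an exact permutation p = 0.00794, the smallest that 4 against 5 libraries allow. In the same libraries the 100 most abundant rows held 25.1% ± 1.60 of counts in E4 and 55.3% ± 6.72 in E2, a difference of -30.17 percentage points (exact permutation p = 0.00794). In the libraries with titles ending in 2, the values were 4539 ± 257 rows in E4 (n = 10) and 4361 ± 303 rows in the named E2 libraries (n = 4). There the difference of 177.9 rows did not pass (exact permutation p = 0.288, adjusted p = 0.288), and neither did the -4.475 points in the most abundant rows, at 30.1% ± 5.61 in E4 and 34.6% ± 9.19 in E2 (exact permutation p = 0.286, adjusted p = 0.288).

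The stages also differed among libraries of low totals, with overlapping ranges. Among libraries under 40000 counts, a limit set after seeing the totals, 4404 ± 232 rows were found in E4 (SD, n = 6; 4087 to 4770) and 3416 ± 709 in E2 (SD, n = 10; 2347 to 4252). This difference of 988.6 rows passed (exact permutation p = 0.00537, adjusted p = 0.00537), as did the -14.39 points in the most abundant rows (exact permutation p = 0.00462, adjusted p = 0.00537). The 6 E4 libraries left in that test all have titles ending in 2, and 7 of the 10 E2 libraries are unnamed. Named E2 libraries in that range had 4133, 4251.5 and 4251.7 rows, within the E4 range.

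**Figure D1:**
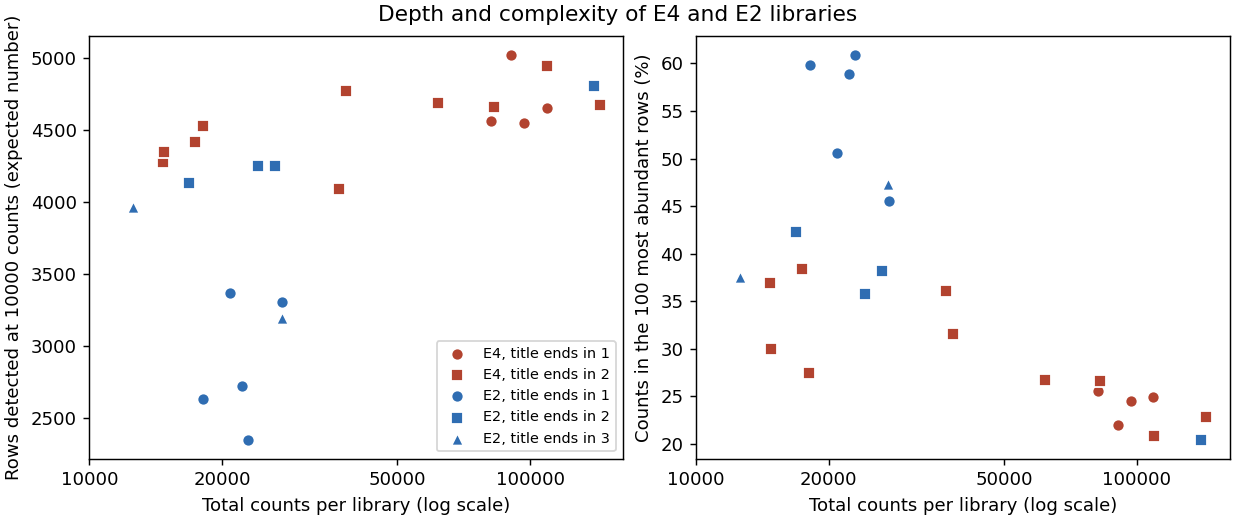
Each point is 1 of the 25 libraries, with its total count on a log axis and, on the vertical axes, the expected number of rows detected at 10000 counts (left) and the percent of all its counts in its 100 most abundant rows (right); colour gives the stage, E4 or E2, and shape the number that ends the title. E2 libraries with titles ending in 1 lie at 2347 to 3365 rows, below every E4 library, while the E2 libraries with titles ending in 2 lie at 4133 to 4808 rows, among the E4 libraries.

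Row by row, 22 rows rose and 16 fell at E4 among the 234 rows with enough counts to be tested (edgeR quasi-likelihood test, adjusted p under 0.05), which is 16.2% of the rows tested, 9.4% higher and 6.84% lower. The test kept only rows of about 366 CPM or more in enough libraries, where CPM is a count scaled to a common library total, so it describes the abundant part of these transcriptomes. The 22 rising rows had log2 fold changes from 1.45 to 2.18 with a median of 1.70, and the 16 falling rows from -2.20 to -1.23 with a median of -1.60. The median over all rows tested was 0.18, and with size factors of the DESeq2 kind (RLE) in place of TMM it was 0.53. With RLE 0 rows passed in edgeR (96 at an unadjusted p under 0.05), and rows 1611, 3740, 8009 and 8280, named below, each had an adjusted p of 0.0842. With counts summed over the libraries of a stage that share a title ending, 0 of the same 234 rows passed in edgeR (15 at an unadjusted p under 0.05). That fit had sums for endings 1 and 2 at E4 and for endings 1, 2 and 3 at E2, with totals of 39898 to 537745 counts. With so few sums, its 0 calls do not show that the stages are alike. All 38 calls had an adjusted p between 0.0457 and 0.0495, just inside the limit, although 48.3% of the 234 rows had an unadjusted p under 0.05. For no row did the E4 and E2 libraries separate without overlap. Among 2145 rows that DESeq2 tested it called 67 higher and 92 lower, so that 42.1% of its calls were higher at E4, against 57.9% in edgeR. It shared 19 of the 38 calls.

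Row 1611 had a lowest, median and highest level of 57.5, 874.5 and 1398 CPM in E4 libraries, against 0, 59.3 and 1078 CPM in E2 libraries. All but 1 of the E4 libraries lay above the E2 median, and all but 1 of the E2 libraries lay at or under 256 CPM. The exception was E2 replicate 2, the deep library titled AB, at 1078 CPM. Means were 779.7 ± 417.6 CPM in E4 (SD, n = 14) and 166.3 ± 312.2 CPM in E2 (SD, n = 11), and the log2 fold change was 2.03 ± 0.55 (SE, edgeR adjusted p = 0.0457).

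Row 3740 had a lowest, median and highest level of 0, 1674 and 5008 CPM in E4 libraries, against 43.6, 189.4 and 1978 CPM in E2 libraries. Its level in E4 was spread widely, with 7 libraries above every E2 library and 1, E4 replicate 8, below every E2 library. The means were 2297 ± 1749 CPM in E4 and 485.9 ± 630.4 CPM in E2, with a log2 fold change of 2.18 ± 0.59 (SE, edgeR adjusted p = 0.0457).

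Among the falling rows, row 8009 had a lowest, median and highest level of 135.03, 257.6 and 1126 CPM in E4 libraries, against 134.9, 1067 and 3703 CPM in E2 libraries. The 4 highest values, all above every E4 library, were E2 replicates 4, 9, 10 and 15. Its log2 fold change was -2.07 ± 0.54 (SE, edgeR adjusted p = 0.0457). Row 8280 ran from 270.3 over a median of 1108 to 1977 CPM in E4 libraries, and from 449.6 over a median of 1830 to 15050 CPM in E2 libraries. A single E2 library, replicate 7, gave the value of 15050 CPM, and the next were 4860 and 4548 CPM. The log2 fold change was -1.71 ± 0.47 (SE, edgeR adjusted p = 0.0457). In the 10 E4 and 2 E2 libraries that score at or above 0 on the first principal component, described further on, it was 0.33 (adjusted p = 1), the other way.

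**Figure D2:**
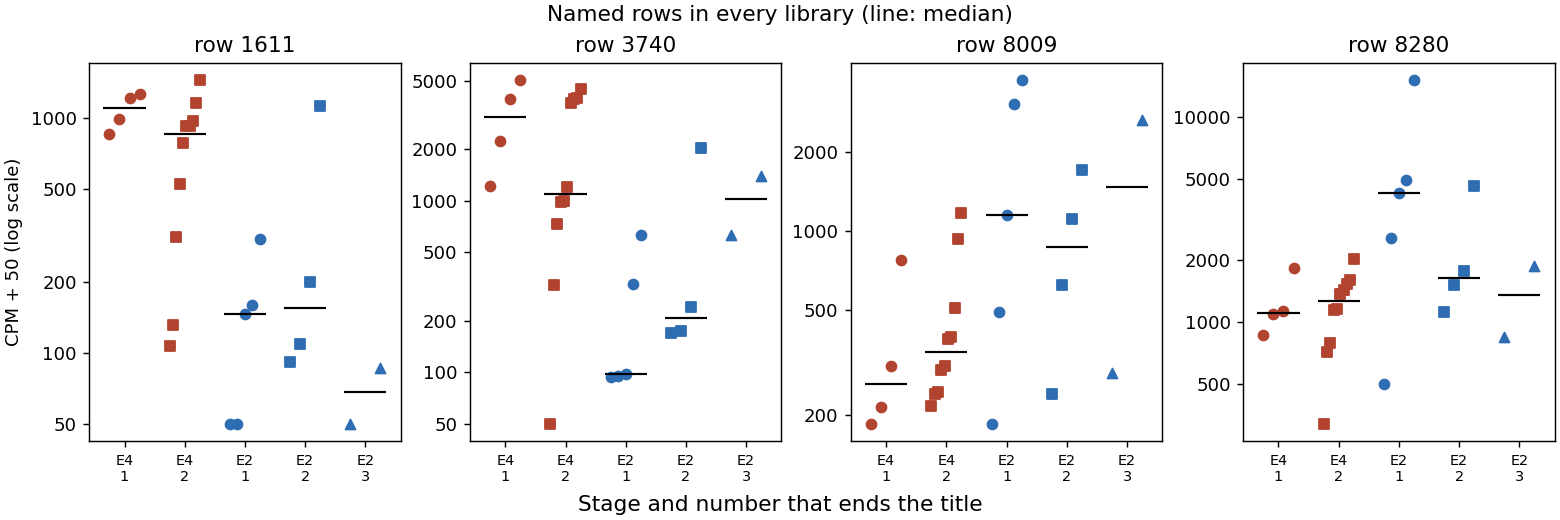
Levels of rows 1611, 3740, 8009 and 8280, as CPM + 50 on a log axis, in every E4 library (left of each panel, titles ending in 1 and 2) and every E2 library (right, titles ending in 1, 2 and 3); each point is a library and each line a median. In rows 1611 and 3740 the E4 libraries with titles ending in 2 span nearly the whole range of the plot, and 1 E2 library with that ending, at 1078 and 1978 CPM, is the highest of the E2 libraries in both.

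The rows that rose moved together from library to library. Over the 25 libraries, and as log2(CPM + 50), the median correlation between pairs of the 22 rising rows was 0.871, against 0.003 for pairs of all tested rows and 0.264 for pairs of the falling rows. These points share their libraries and their depth, and the correlations are descriptions. The rising rows and the falling rows were each chosen for a stage difference over these same libraries. That choice by itself raises the correlations within each set. The rising rows also followed the first principal component, which was computed over the libraries of all stages, blind to stage, and held 25% of the variance of 861 rows. Their median correlation with its score was 0.922, against 0.166 for all tested rows and -0.453 for the falling rows. The sign of the component was set so that its score correlated positively with the log of the library total. By this score, 10 of 14 E4 libraries and 2 of 11 E2 libraries lay at or above 0. The 4 E4 libraries below 0, replicates 2, 5, 8 and 14, held 14722, 36917, 17402 and 38192 counts. Every E4 library above 40000 counts scored above 0, as did replicates 3 and 4, at 14801 and 18079 counts. E2 replicates 2 and 12, at or above 0, held 140062 and 12579 counts. In the 4 E4 libraries below 0 the 22 rows together held 0.138% to 0.951% of counts, which lies within the range of the E2 libraries. In the other 10 they held 1.97% to 4.79%. The 2 E2 libraries at or above 0 were replicates 2 and 12, in which they held 3.32% and 1.18%, and in the other E2 libraries they held 0.0828% to 0.644%. Share and score come from the same counts, and the part of the score in the stage difference was not tested. How far the score follows depth was not tested either.

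Within the libraries with titles ending in 1, where E4 (n = 4) and E2 (n = 5) differed most in makeup, 62.4% of the 266 rows tested were called (edgeR, adjusted p under 0.05), 47% higher and 15.4% lower at E4. The lower ones numbered 41. The E4 libraries there held 81462 to 109112 counts and the E2 libraries 18107 to 27344. In these E4 libraries the rows that rose took up 13.9% of all counts at the median (10.9% to 16.9%), and in these E2 libraries 1.92% (0.737% to 2.66%). The rows that fell took up 8.68% (7.99% to 9.28%) in E4 and 30.4% (20.2% to 35.3%) in E2. The same libraries chose these rows, so the shares describe the calls and are not further support for them. With every library brought down to 10000 counts, the calls came to 22 higher and 3 lower of 82 rows, and 10 other random draws gave 22 to 35 calls.

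Row 935 had 717.4, 1081, 1413 and 1694 CPM in these 4 E4 libraries, against 0 CPM in 3 and 47.9 and 73.1 CPM in the other 2 of these E2 libraries. The groups lay far apart, with a log2 fold change of 5.49 ± 0.83 (SE, edgeR adjusted p = 7.25e-06). Row 1282 had 684.3, 879.8, 979.6 and 1178 CPM in E4, against 0 CPM in 2 and 36.6, 44.96 and 55.2 CPM in the other 3 of the E2 libraries (log2 fold change 5.03 ± 0.77, SE, edgeR adjusted p = 7.25e-06). In these E2 libraries row 935 had at most 2 counts and row 1282 at most 1. At such counts a 0 does not show absence, and the size of both fold changes is uncertain. In the named E2 libraries, with titles ending in 2, the same rows had counts in every library. Row 935 stood at 82.7, 118.5, 189.4 and 1128 CPM there, and row 1282 at 124.05, 177.8, 303 and 985.3 CPM. Outside replicate 2 these levels too rest on few counts. Replicates 1, 3 and 4 had 2, 5 and 2 counts of row 935, and 3, 8 and 3 of row 1282.

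The falling rows with the smallest p were among the most abundant of the table. Row 16054 had 9284, 10017, 10199 and 10320 CPM in the E4 libraries with titles ending in 1, against 26222, 31020, 33243, 41697 and 47606 CPM in such E2 libraries (log2 fold change -1.84 ± 0.32, SE, edgeR adjusted p = 1.62e-05). Row 11033 had 9348, 9611, 10971 and 11527 CPM in E4, against 25967, 28964, 30705, 35802 and 55448 CPM in E2 (log2 fold change -1.75 ± 0.33, SE, edgeR adjusted p = 2.6e-05). As raw counts, these rows were close to the highest value of the table in both groups. Row 16054 had 816 to 1013 counts in E4 and 690 to 870 in E2, and row 11033 had 932 to 1020 counts in E4 and 596 to 1004 in E2. If counts were distinct identifiers out of 1024, an assumption made here, the conversion to molecules would leave log2 fold changes of -1.24 ± 0.48 (SE, edgeR adjusted p = 0.0201) for row 16054 and -1.28 ± 0.48 (SE, edgeR adjusted p = 0.0183) for row 11033. Of the 41 falling rows, 10 reached 512 counts in some library of the 25, and of the rising rows 6 did.

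Within the libraries with titles ending in 2, where the E2 libraries have named cells, no row passed among 418 tested (edgeR, n = 10 and 4, 0% called). With only 4 E2 libraries, these 0 calls do not show that the stages are alike there. The sample numbers are 71 to 74 for these E2 libraries. They are 46 to 49 for E4 replicates 1 to 4 and 70 to 83 for the other E4 libraries, so only a part of the E4 libraries lies near. There, 10 rows (2.39%) had an unadjusted p under 0.05, and DESeq2 called 0 rows as well. The rows with the smallest p were rows 4106 and 6423 in the upward direction and rows 8175 and 9970 in the downward one. Row 4106 had a lowest, median and highest level of 313, 948.8 and 7972 CPM in E4, against 248.1, 414.8, 454.4 and 478.4 CPM in the 4 E2 libraries, and 8 of 10 E4 libraries lay above every E2 library (log2 fold change 2.05 ± 0.92, SE, edgeR adjusted p = 0.961). Row 8175 had 0, 299.8 and 785.5 CPM as lowest, median and highest level in E4, and 151.5 to 4094 CPM in E2 (log2 fold change -2.32 ± 0.91, SE, edgeR adjusted p = 0.961).

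The direction of the differences was mostly shared by these 2 sets of libraries, which have no library in common, but their size was not. All but 1 of the rows that rose in the libraries with titles ending in 1 were tested in those ending in 2, and 90.3% of them had a positive log2 fold change there. Over all 254 rows tested in both sets, the called rows included, 63.4% were positive in those ending in 2. The median log2 fold change of the rising rows was 0.49 with titles ending in 2, against 3.25 in the set that chose them, and 0.22 for all 254 rows with titles ending in 2. Of the 41 rows that fell, 40 were tested in both sets, and 31 of those were negative with titles ending in 2. Their median was -0.55 there and -1.82 in the set that chose them. Across rows, the log2 fold changes of the 2 sets correlated at 0.327 for the rising rows, -0.406 for the falling rows and 0.517 for all 254. Rows can move together from library to library, as the 22 rising rows above did. The percentages of rows with a shared direction therefore do not count independent rows. None of the rows called with titles ending in 1 had an unadjusted p under 0.05 with titles ending in 2. The share of counts moved likewise. The rising rows took up 9.16% of all counts at the median (1.11% to 17.6%) in E4 libraries with titles ending in 2, and 3.55% (2.70% to 15.5%) in the named E2 libraries. The 41 falling rows took up 12.4% (6.06% to 20.4%) in E4 and 20.7% (6.35% to 21.4%) in E2. The ranges overlapped in both cases, and the extreme among the E2 libraries was replicate 2 each time.

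**Figure D3:**
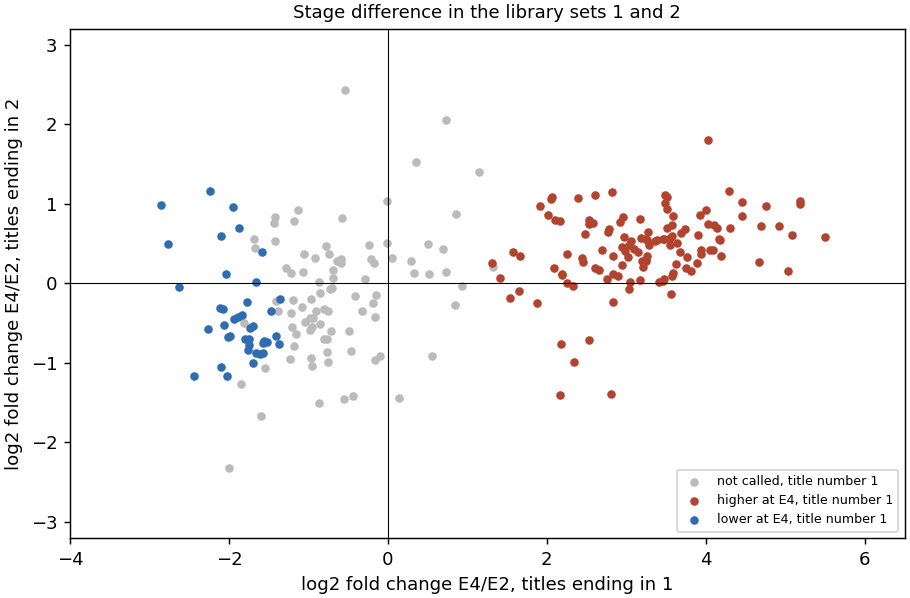
Each point is 1 of 254 rows tested in both sets of libraries, with its log2 fold change of E4 over E2 in libraries with titles ending in 1 (horizontal) and in 2 (vertical); colour marks the rows called in the set ending in 1. Of the rows called higher at E4 in the set ending in 1, 90.3% lie above 0 on the vertical axis, with a median of 0.49 there and 3.25 on the horizontal axis.

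With the named E2 libraries alone set against all 14 E4 libraries, 0 rows passed among 943 (edgeR, 41 at an unadjusted p under 0.05). On the 234 rows tested before, 0 passed and 8 had an unadjusted p under 0.05. The named E2 libraries are few, so these 0 calls do not show that the stages are alike either. The 7 unnamed E2 libraries alone gave 51 higher and 42 lower rows among 301, and 36 of the 38 rows called over all E2 libraries were among them. Whether the unnamed libraries hold other cells than the named ones cannot be told from the labels.

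The calls over all 25 libraries also hung on single libraries. With each library left out in turn, 0% to 51.7% of the tested rows were called. No row passed without any 1 of E4 replicates 1, 3, 4, 6, 7 and 9 to 13, or of E2 replicates 4, 6, 7, 9, 10 and 15, while at least 37.2% of the tested rows still had an unadjusted p under 0.05 in each of those fits. E4 replicate 6 is the library with the stage label stage E2. Without E2 replicates 1, 3 and 5 there were 9, 14 and 3 calls among 252, 254 and 255 rows tested. Calls were more numerous without E4 replicate 8, the E4 library with the lowest score, at 94 of 232 rows (58 higher and 36 lower). Without E2 replicate 2, the E2 library with the highest score, 80 rows were higher and 43 lower among 238. Without E4 replicates 2, 5 and 14 there were 44, 57 and 52 calls among 223, 222 and 223 rows. Without E2 replicate 12 there were 38 among 251. With the libraries under 40000 counts only, 1 row was called higher and 0 lower (0.645% of the rows tested).

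**Figure D4:**
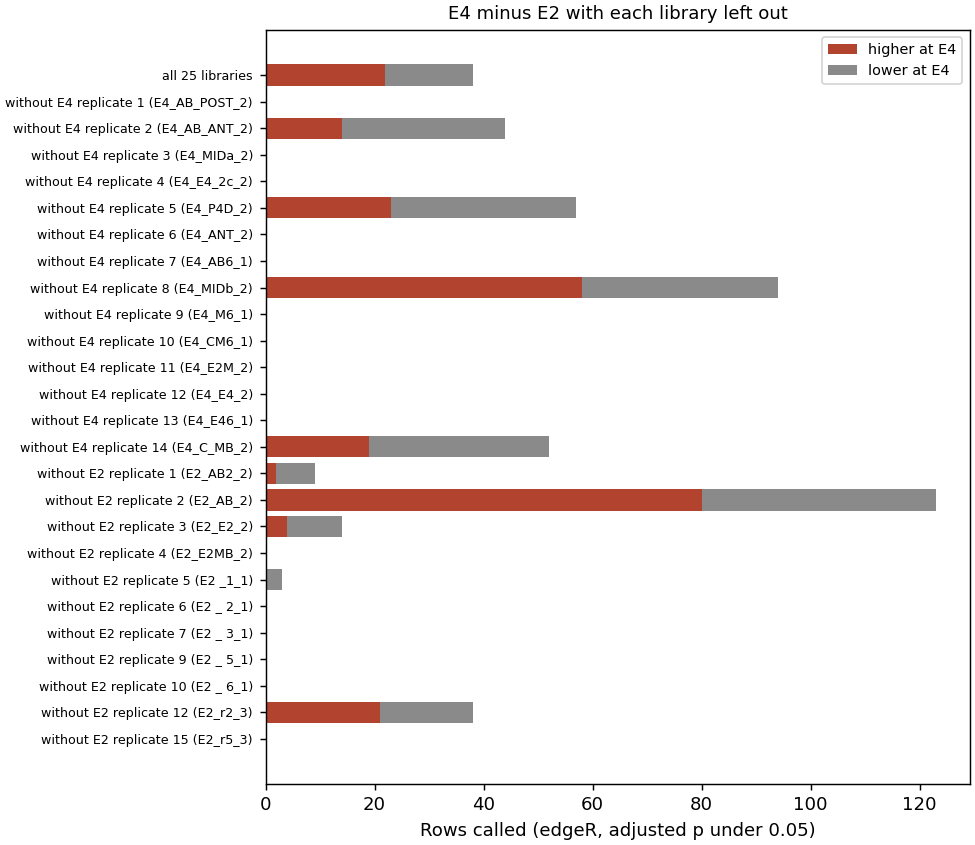
The number of rows called higher at E4 (red) and lower at E4 (grey) in edgeR with all 25 libraries and with each library left out in turn, E4 libraries first. The bar is absent for 16 of the 25 libraries left out, and it is longest, at 80 rows higher and 43 lower, without E2 replicate 2.

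Where titles name AB or E at both stages, 3 E4 libraries titled AB (replicates 1, 2 and 7) were compared with 2 such E2 libraries (replicates 1 and 2), and 3 E4 libraries titled E (replicates 4, 12 and 13) with 2 such E2 libraries (replicates 3 and 4). The title of E2 replicate 4 reads E2MB, and no label says which cells it holds beyond E. E4 replicate 11, titled E2M, was put in neither class. In a fit of all 10 libraries no row passed among 944 for AB (0% called, 24 at an unadjusted p under 0.05), for E (0% called, 78 at an unadjusted p under 0.05) or for the difference between the title classes (0% called, 34 at an unadjusted p under 0.05). DESeq2 called 0 rows in each. With 3 against 2 libraries per class, the absence of calls does not show that the stages are alike. Without E2 replicate 4, 0 of 3010 rows passed for E (edgeR, 100 at an unadjusted p under 0.05). In the E-titled libraries the 22 rows described above held 2.59%, 2.89% and 3.16% of counts at E4, against 0.314% and 0.644% at E2. In the AB-titled libraries they held 0.951%, 2.45% and 3.24% at E4, against 0.196% and 3.32% at E2. The stages thus stood apart in the E-titled libraries and overlapped in the AB-titled ones, but these libraries are among those that chose the rows, and the difference between the title classes did not pass the row-wise test.

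Row 14457 had 242.4, 293.3 and 553.1 CPM in the E-titled libraries of stage E4, against 0 and 41.3 CPM in those of stage E2 (log2 fold change 3.83 ± 1.18, SE, edgeR adjusted p = 0.492). Row 1642 had 165.9, 247.5 and 274.7 CPM at E4 and was at 0 in both E-titled libraries of stage E2. With a floor of 3 counts over their summed 50590 counts, or 59.3 CPM, its pooled level of 248.6 CPM at E4 was at least 4.19-fold higher, and it did not pass the test (edgeR adjusted p = 0.492). Row 1642 was present in both AB-titled libraries of stage E2, at 118.5 and 456.9 CPM. Row 16490 had the smallest p of the rows lower at E4 in either class. It stood at 33.1, 45.8 and 67.9 CPM in AB-titled libraries of E4, against 107.1 and 1837 CPM in those of E2 (log2 fold change -4.20 ± 1.08, SE, edgeR adjusted p = 0.999). In E-titled libraries it stood at 0, 18.3 and 32.3 CPM at E4, against 303 and 413.5 CPM at E2 (log2 fold change -4.16 ± 1.17, SE, edgeR adjusted p = 0.492). In the unnamed E2 libraries it was at 0 in 5 of 7 and at 143.8 and 165.7 CPM in the other 2, all below the 2 E-titled libraries of that stage.

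Outside the compared libraries, the share of counts in the called rows was described in the other stages as well, without a test. The median share of the 22 rising rows was 0.559% of counts in 13-cell libraries (n = 13). It was 0.78% in 15-cell (n = 5) and 1.98% in 16-cell libraries (n = 4), then 0.314% at E2 (n = 11), 2.74% at E4 (n = 14) and 0.359% at E8 (n = 11). E4 had the highest median of all 16 stages, and E2 the lowest, in the libraries that chose the rows. Within a stage the spread was wide. At the 13-cell stage the libraries ran from 0.0697% to 3.74%, a highest value above that of any E2 library. The stages also differed in how many libraries scored low. With libraries at or above 0 on the first component only, the medians were 3.32% in 13-cell (n = 5), 2.19% in 15-cell (n = 1) and 1.98% in 16-cell libraries (n = 4), 2.25% at E2 (n = 2), 3.2% at E4 (n = 10) and 1.25% at E8 (n = 3). The score follows the share of these rows, so this choice of libraries leaves out those with a low share and gives no order of the stages.

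The 16 falling rows had a median share of 2.59% in 13-cell, 4.06% in 15-cell and 2.57% in 16-cell libraries, 4.33% at E2, 1.99% at E4 and 2.56% at E8. In libraries at or above 0 on the component, the median was 1.75% at E4 (n = 10; 0.811% to 2.31%). It was 2.83% at E8 (n = 3; 2.56% to 3.07%). In the 13-cell, 15-cell and 16-cell libraries together it was 2.5% (n = 10; 1.31% to 4.65%), and the 2 E2 libraries held 1.15% and 4.33%. The E4 libraries are among those that chose these 16 rows for lower levels at E4. A low share at E4 is therefore partly set by that choice and gives no order of the stages.

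Neighbouring steps were compared in the same way, each with E4 or E2 libraries in it, so that their differences are not independent of those above. Between E8 (n = 11) and E4 (n = 14), 16 rows were higher and 63 lower at E8 among 616 tested (edgeR, 12.8% called, 2.6% higher and 10.2% lower). Between E2 (n = 11) and the 13-cell to 16-cell libraries (n = 22), 0 rows passed among 199 (edgeR, 0% called, 23 at an unadjusted p under 0.05). DESeq2, which tested 1169 rows, called 24 higher and 6 lower at E2. Row 1611 stood at 166.3 ± 312.2 CPM at E2, 779.7 ± 417.6 CPM at E4 and 153.6 ± 170.9 CPM at E8 (SD, n = 11, 14 and 11), and at 490.8 ± 315 CPM at the 16-cell stage (SD, n = 4). Row 3740 stood at 485.9 ± 630.4 CPM at E2, 2297 ± 1749 CPM at E4 and 535.4 ± 607.8 CPM at E8. It was under 500 CPM in every library up to the 6-cell stage and reached 2799 ± 2272 CPM in the pieces titled LE (SD, n = 8).

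**Figure D5:**
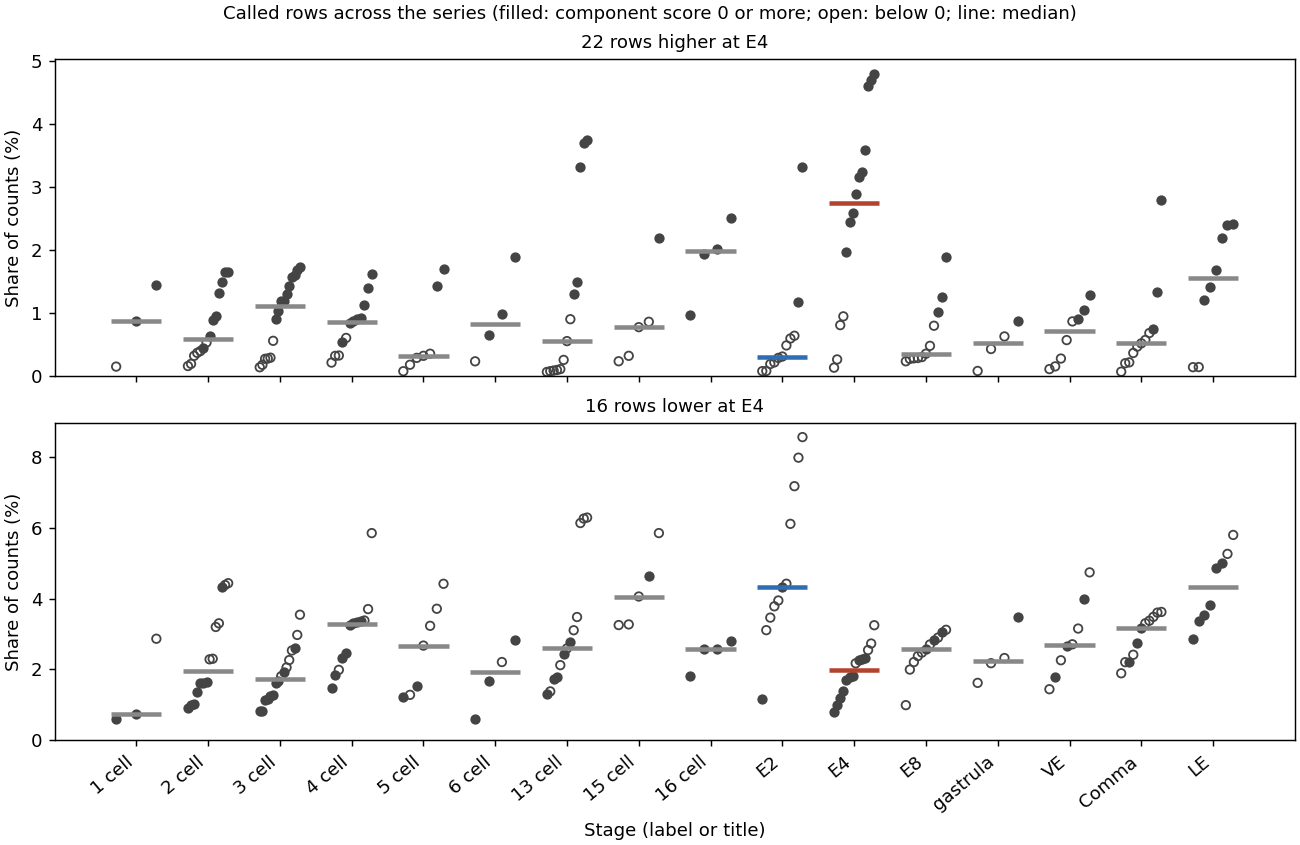
Percent of counts in the 22 rows called higher at E4 (top) and in the 16 rows called lower at E4 (bottom) for each library of 10000 counts or more, by stage; filled points score at or above 0 on the first principal component and open points below, and lines are medians. For the rows higher at E4 the medians are 2.74% at E4 and 0.314% at E2, and the 16-cell stage has no open point.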

How the data were processed

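The authors deposited raw counts, as whole numbers for 16853 rows and 194 libraries. The submitters' processing notes name CASAVA 1.8, Bowtie2 2.1.0 and HTSeq 0.5.4p3. Settings, and any collapse of molecular identifiers, were not given in the sources used here. No value exceeded 1024, reached by 22 values, none of them in the 25 libraries compared. A column was tied to a sample through the number at the end of its description, and 9 columns whose number also spells another sample's title were not used, which left 185 libraries, 145 of them with 10000 counts or more. The deposited contig annotation was not used, since nothing pairs it with the rows.

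Members, lists and tests were chosen with earlier results of these data known. Stages were compared in libraries of 10000 counts or more by edgeR 4.0.16 and its quasi-likelihood test (TMM, filterByExpr with minimum count 10 and minimum total 15, robust dispersions, Benjamini-Hochberg, adjusted p under 0.05), under R 4.3.3 with limma 3.58.1. DESeq2 1.42.0 was an alternative. Rows detected at 10000 counts were computed by rarefaction, and permutation tests were two-sided, with 100000 permutations, or exact with under 10 libraries in a group. The first component used log2(CPM + 50) of 861 rows with 2000 or more counts over the 145 libraries. For each comparison the rule named the rows of smallest p, 2 in each direction, if detected in most libraries of the higher group, and where none passed they are given as not passing; not every such row is described. No libraries were treated as duplicates: the closest pair of a group had a chi-square over its degrees of freedom of 2.91. The scripts were tested on simulated data. Alternatives covered scaling, filter, depth, covariates, title endings, the library with conflicting labels and each library left out. The conversion of counts for 1024 identifiers, the limit of 40000 counts and the repeated thinning draws were chosen after seeing the data, as were fits on the same rows as the main one and the other alternatives within titles ending in 1.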

Additional observations from a re-analysis of the deposited data

Results flagged for a closer look

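Among the E2 libraries with titles ending in 2, E2 replicate 2, titled AB, stood far from the other 3 on 2 measures. Its total was 140100 counts (rounded), against 16880 to 26410 in the others. Its share of counts in the 22 rows called higher at E4 was 3.319%, against 0.1955% to 0.6438%. Each gap exceeded the 95% limit of Dixon's test, which chance passes in about 1 in 20 groups, and 24 groups of values were examined. Without this library 80 rows were called higher and 43 lower among 238 tested between all E4 and E2 libraries, in place of 22 and 16 among 234. In the libraries with titles ending in 2, still 0 were called among 412 rows (edgeR, 41 at an unadjusted p under 0.05).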

How the results depend on the processing

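Of the rows tested between E4 and E2, 16.2% were called (22 higher, 16 lower). The share was 0% with RLE size factors (96 rows at an unadjusted p under 0.05), which shifted the median log2 fold change by 0.358 and left all 38 directions. It was 1.38% with no low-count filter, in a test of far more rows and with more calls (98 of them lower), 7.41% with DESeq2 (67 higher, 92 lower), and 0% in thinned libraries, where 10 other draws gave 0 to 7 calls. It was 0% with log2 total as a covariate, 0% with the title number as a replicate block (37.4% of 361 rows at an unadjusted p under 0.05), 0% with counts summed per title number (on all rows or the same rows), 0% without the library with conflicting labels, 0% with it in E2, 0% with named E2 libraries only (on all rows or the same rows), 0% without E4 titles ending in 1 and 0% in libraries at or above 0 on the component. It was 30.9% with unnamed E2 libraries only (43.2% on the same rows, 66 higher and 35 lower) and 0.645% under 40000 counts (0.427% on the same rows). A minimum of 20000 counts gave 3 higher and 28 lower rows among 476 tested. Leaving out E2 titles ending in 3 gave 18 higher and 31 lower among 271. Converted for 1024 identifiers, 4 rows were called higher and 23 lower among 238. Each library left out gave 0% to 51.7%. The title numbers do not pair the stages: across rows, the difference between endings in E4 and in E2 correlated at -0.423, and no label says what they mark. Within titles ending in 1, 62.4% called became 9.63% of 5492 rows with DESeq2 (464 higher, 65 lower), 30.5% thinned, and 47.9% to 57.6% with a library left out, with 252 calls without E2 replicate 5 and 258 without replicate 10. Within titles ending in 2, no low-count filter gave 0.018% (3 lower rows), and leaving out libraries gave 0% to 0%. For AB-titled libraries, no filter gave 0.012% (2 lower rows) and leaving out libraries 0% to 0.161%; where 1 library was left in a group, it was assumed to vary like the rest. The difference in rows detected was 177.9 in titles ending in 2 and 222.2 with named E2 libraries only (exact permutation p = 0.153), and in the most abundant rows -4.475 and -5.898 points, no longer past the threshold. For E8 minus E4, 12.8% called became 6.15% with DESeq2 (373 rows), 3.08% thinned (2 rows) and 11.1% without the library with conflicting labels (48 rows); for E2 minus the 13-cell to 16-cell stages, 0% became 2.57% and 1.43%. In libraries at or above 0 on the component, the rising share was 2.11% in place of 0.885% at the 13-cell to 16-cell stages and 1.25% in place of 0.359% at E8, and row 8280 turned to 0.332. The cause was not tested in any of these cases. Depth limits the tests to abundant rows.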

Other observations

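Row 4106 and row 16490, chosen after their values were seen, varied widely within stages. Row 4106 stood at 3274 ± 2741 CPM at the 15-cell stage (SD, n = 5), 403 ± 153.1 CPM at E2 (SD, n = 11), 1293 ± 1965 CPM at E4 (SD, n = 14) and 1021 ± 923.5 CPM at E8 (SD, n = 11), and a single library reached 8579 CPM at the 13-cell stage. Row 16490, at 0 to 67.9 CPM in the AB-titled and E-titled E4 libraries and at up to 299.1 CPM in the other E4 libraries, reached 2746 CPM in a 3-cell library and 5393 CPM in a 6-cell library, while its medians were 65.9 CPM at the 3-cell and 1975 CPM at the 6-cell stage. At E8 it did not exceed 83.97 CPM.

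Over the 234 tested rows, as log2(CPM + 50), the median correlation between 2 libraries was 0.516 within E4 (-0.046 to 0.888), 0.689 within E2 (0.04 to 0.852) and 0.433 between E4 and E2 libraries (-0.002 to 0.903). Within titles ending in 2 it was 0.484 for E4 and 0.481 for E2, and within titles ending in 1 it was 0.701 for E4 and 0.796 for E2. The highest correlation of all pairs, 0.903, joined an E4 and an E2 library with titles ending in 2. These pairs share libraries, and the values are descriptions.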
